A study of Homo sapiens with 12 samples.

Results

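The 199 genes described here are the expressed protein-coding members of the human ZNF zinc finger series in HT1080 cells, an established fibrosarcoma line. They were selected on their read counts: each has a symbol that is ZNF followed by a number, with at most 1 letter after it, and a mean read count over all 12 libraries of at least 500. The table holds 46427 genes, of which 512 are protein-coding genes with such a symbol, and 30 of those had no read in any library. The level over all libraries chose the genes, so their abundance is a description and not a result. Cells had been transfected with siRNA against TRIP12 (a HECT-type ubiquitin ligase), against OTUD5 (a deubiquitylase), against both together, or with scrambled siRNA, and each of the 4 groups has 3 libraries. The series title places the work among studies of the ubiquitin code. The question put to the ZNF genes was whether they shift as a family when either enzyme is lost, because ZNF404 and ZNF582 had been seen to rise with siTRIP12. The groups are called siTRIP12, siOTUD5, double knockdown (siTRIP12+siOTUD5) and Scrambled below. No untreated cells are among the groups, the siRNA sequences and the time after transfection are not given in the sources used here, and nothing says that the 3 libraries of a group came from separate cultures, so p-values measure the spread between libraries, which may be technical.

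C2H2 zinc finger proteins bind DNA through tandem fingers, each folded around a zinc ion by a pair of cysteines and a pair of histidines. Many human ZNF proteins also carry a KRAB domain, which recruits the corepressor TRIM28 and, through it, the histone methyltransferase SETDB1, and these proteins are best known for silencing transposable elements. KRAB zinc finger genes arose by repeated tandem duplication, and many stand in clusters on chromosome 19.

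The knockdowns were visible at their targets. TRIP12 averaged 41.8 ± 3.92 CPM (counts scaled to a common library size, SD, n = 3) in siTRIP12 and 53.2 ± 2.70 CPM in the double knockdown, against 315 ± 1.76 CPM in siOTUD5 and 322 ± 39.8 CPM in Scrambled. OTUD5 averaged 11.1 ± 0.749 CPM in siOTUD5 and 10.9 ± 1.34 CPM in the double knockdown, against 73.8 ± 0.275 CPM in siTRIP12 and 59.8 ± 1.13 CPM in Scrambled. Each knockdown had libraries fully below Scrambled (exact two-sided permutation p = 0.1, the smallest that 3 against 3 libraries allow). Libraries held 37912312 to 43881471 reads. Of 10 mesenchymal markers 9 averaged at least 1 CPM, and among 19 epithelial, leukocyte, endothelial and muscle markers only CLDN4 did. Scrambled replicate 3 stood apart from its group. Across the 8867 protein-coding genes with a mean of at least 500 reads, its deviation from each gene's mean over all 12 libraries fell with transcript length (Spearman's rho = -0.55 across genes). In the other 11 libraries rho ran from -0.23 to 0.37. The main counts of gene groups that rest on Scrambled are therefore given with and without it. Some finer counts are given only with it, such as KRAB genes on and off chromosome 19 and longer and shorter genes with a KRAB match. In bulk RNA, fewer cells of a kind and less RNA per cell cannot be told apart.

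Among the 199 genes, 77 lie on chromosome 19 (38.7%, against 6.29% of the protein-coding genes with a mean of at least 500 reads). The next most were 17 on chromosome 7 and 13 on chromosome 16. A protein sequence could be read for 198 of them by translating the longest open reading frame of the annotated transcripts. A KRAB pattern was found in 101 of those proteins, 60 of them encoded on chromosome 19, and in 97 it was not found. "KRAB match" below means only that pattern, which misses some known KRAB proteins. The median protein held 10 matches to the C2H2 spacing, and ZNF462 held the most, 34. ZNF185, ZNF330 and ZNF503 held no match, and ZNF185 is known as a LIM-domain protein of the actin cytoskeleton, so the symbol alone gathers some genes of other kinds. The ZNF genes were long and lowly expressed for the level required of them. Their median transcript length was 4835 bases and their median level 5.70 FPKM (fragments scaled to transcript length and library size, as deposited), against 3789 bases and 13.9 FPKM among the 8867 protein-coding genes.

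Per transcript length, the most abundant of the 5 genes with the most reads was ZNF146, with a mean of 52.4 FPKM. ZNF664 averaged 43.6 FPKM, ZNF598 36.5 FPKM and ZNF207 31.9 FPKM, and ZNF512B averaged 21.0 FPKM. ZNF598 is the ubiquitin ligase that senses collided ribosomes, and ZNF207 (BuGZ) is a chaperone of the spindle checkpoint protein BUB3. At the threshold, ZNF708, ZNF558, ZNF681 and ZNF576 entered with means of 501 to 513 reads. ZNF783, ZNF75A, ZNF420 and ZNF404 stayed out with means of 499, 498, 491 and 486 reads. ZNF404 and ZNF582 are thus not among the 199, with ZNF582 at a mean of 145 reads, and both are described separately.

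Promoter sequence is shown for the 2 genes that prompted the question, and for ZNF841 and ZNF367, the genes among the 199 with the largest rise and the largest fall. The 250 bases before the annotated start are printed 5′ to 3′ on the gene's strand, from RefSeq on GRCh38.p14, with capitals for matches on either strand to the ETS (CCGGAAG), GC box (GGGCGGG), the CCAAT letters, TATA box (TATAAA), E2F (TTTNNCGC), CRE (TGACGTCA), E-box (CACGTG), YY1 (AAGATGGC) and NRF1 (GCGCATGC) letters. In ZNF582 the second ETS match overlaps the YY1 match. ZNF841 has 2 such windows, and only the first is printed.
ZNF404, chr19:43883965-43884214, minus strand: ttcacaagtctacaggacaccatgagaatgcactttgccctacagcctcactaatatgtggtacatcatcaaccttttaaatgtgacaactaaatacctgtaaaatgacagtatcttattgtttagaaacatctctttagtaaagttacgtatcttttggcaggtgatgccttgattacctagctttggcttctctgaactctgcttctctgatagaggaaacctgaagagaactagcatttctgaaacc
ZNF582, chr19:56393535-56393784, minus strand: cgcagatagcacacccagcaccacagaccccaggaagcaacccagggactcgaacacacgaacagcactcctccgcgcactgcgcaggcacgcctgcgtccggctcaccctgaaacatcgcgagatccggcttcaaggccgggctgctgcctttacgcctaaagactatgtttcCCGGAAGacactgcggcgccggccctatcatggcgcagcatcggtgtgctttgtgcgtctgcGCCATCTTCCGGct
ZNF841, chr19:52095766-52096015, minus strand: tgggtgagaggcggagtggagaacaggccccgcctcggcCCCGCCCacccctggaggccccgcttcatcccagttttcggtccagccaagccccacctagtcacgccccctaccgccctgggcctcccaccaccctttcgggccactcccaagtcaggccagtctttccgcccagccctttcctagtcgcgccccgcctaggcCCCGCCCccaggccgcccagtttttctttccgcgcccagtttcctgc
ZNF367, chr9:96418371-96418620, minus strand: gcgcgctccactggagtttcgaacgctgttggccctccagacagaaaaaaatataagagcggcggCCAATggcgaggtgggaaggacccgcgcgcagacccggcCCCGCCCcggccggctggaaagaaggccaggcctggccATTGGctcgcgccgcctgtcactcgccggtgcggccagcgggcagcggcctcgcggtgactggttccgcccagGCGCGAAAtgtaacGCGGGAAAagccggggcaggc

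The 4 sequences differ most in CpG. ZNF404 holds 1 CpG and 38.4% G or C, ZNF582 23 CpG and 62.8%, ZNF841 17 CpG and 69.6%, and ZNF367 30 CpG and 69.2%. The second ZNF841 window (chr19:52094272-52094521, not printed) holds 6 CpG and 43.6% G or C, with CCAAT and TATA box matches and no GC box match. The median over 233 windows of 175 of the 199 genes was 22 CpG, against 14 over all 35116 RefSeq windows (250 bases before to 50 after a start). These windows are longer than the printed 250 bases, so their CpG counts cannot be set directly against those of the 4 sequences. ETS letters occurred in 38.6% of the ZNF windows and 10.3% of all windows. The E2F letters, present at 2 places before ZNF367, occurred in 13.3% of the ZNF windows and 6.89% of all windows, and TATAAA in 4.29% and 11.5%. These are matches of letters, with no measurement of binding in the data.

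ZNF404 (chr19:43872365-43883964) and ZNF582 (chr19:56382751-56393534) were both higher wherever TRIP12 was knocked down. ZNF404 had 10.4, 12.7 and 11.7 CPM in siTRIP12, 7.91, 6.88 and 8.19 CPM in siOTUD5 and 23.1, 21.4 and 23.0 CPM in the double knockdown, against 5.70, 6.17 and 6.47 CPM in Scrambled. Its double-knockdown libraries lay above every other library, and its siTRIP12 libraries above all of siOTUD5 and Scrambled. ZNF582 had 5.84, 5.21 and 6.49 CPM in siTRIP12, 1.77, 2.18 and 2.05 CPM in siOTUD5 and 4.61, 5.36 and 3.88 CPM in the double knockdown, against 2.18, 1.31 and 1.67 CPM in Scrambled. For ZNF582 the siTRIP12 and double-knockdown libraries overlapped, as did the siOTUD5 and Scrambled libraries. The log2 fold changes of siTRIP12 over Scrambled were 0.92 ± 0.10 (SE) for ZNF404 and 1.76 ± 0.19 for ZNF582, and since these values drew attention to the genes they carry no test here. The double knockdown against siOTUD5 compares none of those 6 libraries, although they enter the shared spread behind its SE and adjusted p. There ZNF404 rose by 1.55 ± 0.10 (edgeR quasi-likelihood test, Benjamini-Hochberg adjusted p = 4.1e-08) and ZNF582 rose by 1.21 ± 0.18 (adjusted p = 0.00049), and both calls passed with any 1 library left out.

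**Figure D1:**
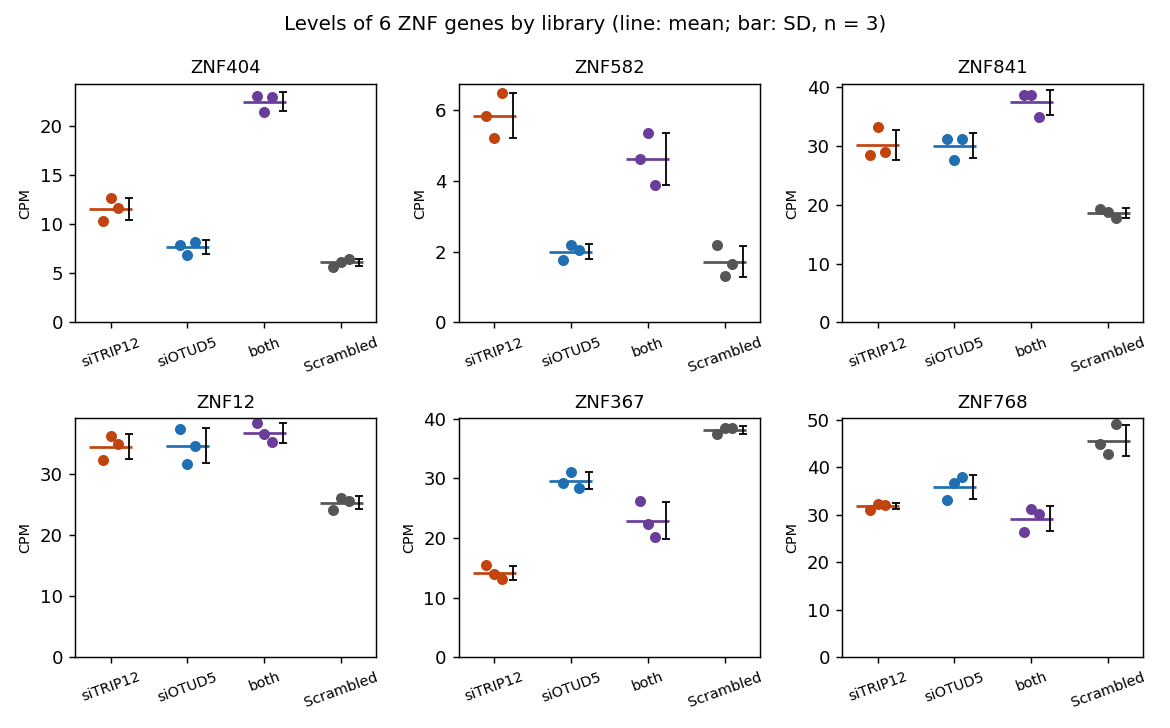
CPM (vertical axis, from 0) of 6 ZNF genes in the 3 libraries each of siTRIP12, siOTUD5, siTRIP12+siOTUD5 ("both") and Scrambled, with a line for the mean and a bar for the SD (n = 3). ZNF404 was highest in the double knockdown (21.4 to 23.1 CPM, against 5.70 to 6.47 CPM in Scrambled), ZNF841 and ZNF12 were higher than Scrambled in every knockdown library, and ZNF367 and ZNF768 were lower.

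The 199 genes did not move as 1 block with siTRIP12. Against Scrambled, 29 rose and 18 fell, 14.6% and 9.05% of them, where 14.5% of the 16283 genes tested rose and 17.4% fell. Of the 8867 protein-coding genes, which pass the same minimum of 500 reads, 15.6% rose and 25.7% fell. The share of the 199 that rose was thus near both, and the share that fell was lower than both. The median log2 fold change of the 199 was 0.028, against 0.0069 over all genes tested and -0.036 over the 8867 protein-coding genes. Without Scrambled replicate 3 the same comparison gave 28 rises, 27 falls and a median of 0.0073, against a median of 0.0080 over all genes tested. The median of the 199 was 0.046 without siTRIP12 replicate 3 or Scrambled replicate 1, and 0.048 without Scrambled replicate 2. With upper-quartile factors in place of TMM factors it gave 41 rises and 13 falls, 75.9% of the calls upward instead of 61.7%, and all genes also tipped, to 57.0% upward from 45.6% with TMM factors.

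With siOTUD5 the balance was further to the high side. Against Scrambled, 38 of the 199 rose and 11 fell, 19.1% and 5.53%, where 11.4% of all genes rose and 11.9% fell. Of the 8867 protein-coding genes, 15.7% rose and 17.3% fell, so the share of rises was nearer to theirs. The median log2 fold change of the 199 was 0.084, against -0.0078 over all genes tested. Without Scrambled replicate 3, 31 rose and 12 fell, with a median of 0.042, against -0.0034 over all genes tested. Without siOTUD5 replicate 1 there were 25 rises and 7 falls, and without its replicate 2 there were 23 and 6.

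The double knockdown moved the most ZNF genes. Against Scrambled, 65 rose and 12 fell, 32.7% and 6.03% of the 199, where 14.7% of all genes rose and 16.2% fell. Of the 8867 protein-coding genes, 18.5% rose and 23.1% fell. The median log2 fold change of the 199 was 0.11, against 0.0024 over all genes tested and -0.023 over the protein-coding genes. Without Scrambled replicate 3 it was 60 rises, 18 falls and a median of 0.076, against 0.0080 over all genes tested. With any library left out the rises numbered 52 to 66. The falls numbered 5 without double-knockdown replicate 1. The changes were small: 7 of the 199 moved by more than 1.5-fold and 1, ZNF841, by more than 2-fold.

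The shift can also be read in single libraries, as the median over the 199 genes of log2 CPM minus each gene's Scrambled mean. It was 0.038, 0.051 and -0.0036 in siTRIP12, 0.059, 0.096 and 0.084 in siOTUD5 and 0.12, 0.079 and 0.14 in the double knockdown, against 0.026, 0.042 and -0.059 in Scrambled. The siOTUD5 and double-knockdown libraries all lay above the 3 Scrambled libraries, whereas siTRIP12 overlapped them. Scrambled replicate 3 was the lowest of the 12. The summed level of the 199 genes was 6924 ± 114 CPM in siTRIP12, 7177 ± 74.4 CPM in siOTUD5 and 7383 ± 51.6 CPM in the double knockdown, against 6803 ± 247 CPM in Scrambled (SD, n = 3 each). Transcript length moved with these medians. Across the 199 genes, rho between length and deviation from each gene's mean over all 12 libraries was -0.51 in Scrambled replicate 3. It was 0.33 and 0.31 in double-knockdown replicates 1 and 3. With the trend on length removed in each library, the double knockdown showed 62 rises and 15 falls, with a median of 0.073. The same removal gave 38 rises and 13 falls with siOTUD5, with a median of 0.049 in place of 0.084. With siTRIP12 it gave 36 rises and 24 falls, with a median of 0.043 in place of 0.028. Over all genes tested the medians after the removal were 0.012 in the double knockdown, 0.0030 with siOTUD5 and 0.018 with siTRIP12.

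**Figure D2:**
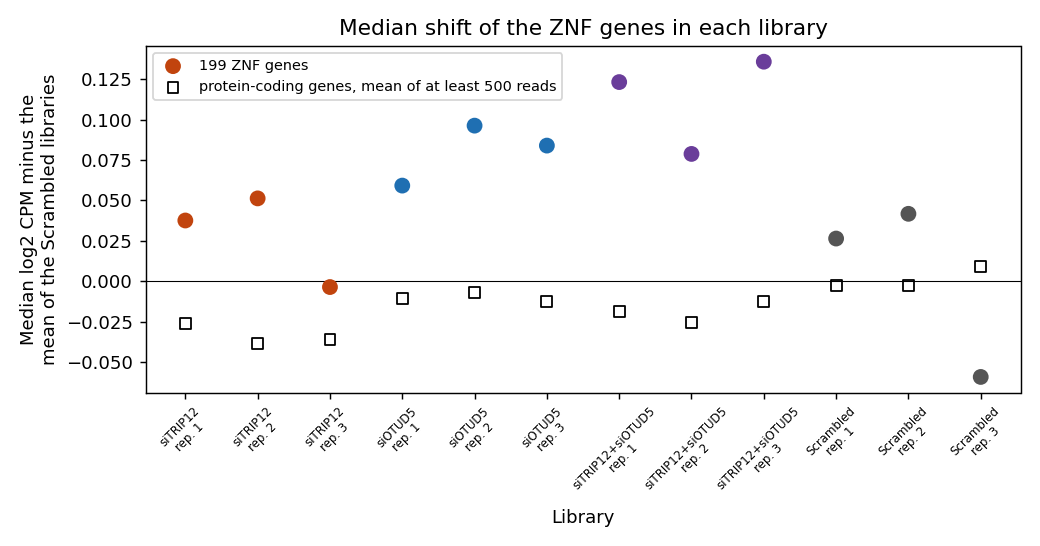
Median over the 199 ZNF genes (filled circles, coloured by group: siTRIP12 orange, siOTUD5 blue, siTRIP12+siOTUD5 purple, Scrambled grey) and over the 8867 protein-coding genes with a mean of at least 500 reads (open squares) of log2 CPM minus the mean of the Scrambled libraries, for each library. The ZNF medians reached 0.079 to 0.14 in the double knockdown and -0.059 in Scrambled replicate 3, while the squares stayed between -0.039 and 0.0090.

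The same siRNA could be compared in 2 sets of libraries that share none, although all tests share 1 estimate of the spread. The siTRIP12 change against Scrambled and the double knockdown against siOTUD5 had the same sign in 145 of the 199 genes (72.9%). Pearson's r was 0.56 across these genes, which are not independent replicates. Among the 8867 protein-coding genes, 66.9% had the same sign and r was 0.58. Of the 29 genes that rose with siTRIP12 alone, 28 had a positive change over siOTUD5 and 8 passed the test there, 27.6% of the 29 and 50% of the 16 that rose there. The siOTUD5 change against Scrambled and the double knockdown against siTRIP12 had the same sign in 139 of the 199 (69.8%, r = 0.44), and in 64.1% of the protein-coding genes (r = 0.45). Correlation across the ZNF genes was thus near that of the protein-coding genes in both cases. Of the 38 genes that rose with siOTUD5 alone, 35 had a positive change there and 17 passed, 44.7% of the 38 and 45.9% of the 37 that rose there. The like shares among all genes called were not counted.

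Over siTRIP12 alone, 8.78% of all genes rose in the double knockdown and 6.93% fell. Of the 8867 protein-coding genes, 13.9% rose and 8.67% fell. The 199 genes had 37 rises and 5 falls, 18.6% and 2.51%, with a median log2 fold change of 0.092. The rises numbered 20 without double-knockdown replicate 1, 24 without its replicate 3, 23 without siTRIP12 replicate 3 and 56 without Scrambled replicate 3, which enters only through the shared spread. Over siOTUD5 alone, 3.35% of all genes rose and 5.07% fell, and 4.05% and 7.54% of the protein-coding genes. There the 199 genes had 16 rises and 5 falls, 8.04% and 2.51%, with a median of 0.049. Those 16 rises became 7 to 10 when any siOTUD5 or double-knockdown library was left out, and 28 without Scrambled replicate 3.

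Genes with a KRAB match held more of the rises than genes without it in the double knockdown and with siTRIP12. In the double knockdown against Scrambled, 45 of the 101 genes with the match rose and 4 fell (median log2 fold change 0.18), against 20 rises and 8 falls among the 97 without it (median 0.039). The rises were 44.6% and 20.6%, and the falls 3.96% and 8.25%, where 14.7% of all genes rose and 16.2% fell. With siTRIP12 the counts were 19 rises and 4 falls (median 0.061), against 10 rises and 14 falls (median -0.011). Those rises were 18.8% and 10.3%, and the falls 3.96% and 14.4%, where 14.5% of all genes rose and 17.4% fell. Leaving out Scrambled replicate 3 gave 18 rises and 8 falls (median 0.031), against 10 rises and 19 falls (median -0.028). The 19 rises became 12 without siTRIP12 replicate 2, and the 4 falls became 2 without siTRIP12 replicate 2 or 3 or Scrambled replicate 1. The median with the match was 0.093 without siTRIP12 replicate 3, and the median without the match was above 0 without siTRIP12 replicate 2 or Scrambled replicate 2, at 0.0068 and 0.0024. With siOTUD5 both kinds were called about equally often, with 21 rises and 4 falls (median 0.10), against 17 rises and 7 falls (median 0.056). The rises there were 20.8% and 17.5%, and the falls 3.96% and 7.22%, where 11.4% of all genes rose and 11.9% fell. Those 21 rises became 13 and 12 without siOTUD5 replicate 1 and replicate 2, and the 17 became 11 without replicate 2. Without Scrambled replicate 1 the genes without a match held 20 of the 37 rises. Leaving out Scrambled replicate 3 gave 16 rises and 6 falls with the match (median 0.073), against 15 rises and 5 falls without it (median 0.021). The difference between both kinds of gene was not tested. Their median lengths were 4680 bases with the match and 4882 bases without it, and their median levels 4.59 FPKM and 6.93 FPKM. Within both kinds, length moved with the counts. In the double knockdown 25 of the 49 longer genes with the match (at least the median length of the 199) rose and 2 fell, and 20 of the 52 shorter ones rose and 2 fell. Without the match, 14 of 51 longer genes rose, and the 8 falls were among the 46 shorter ones, of which 6 rose. The genes without the match, with Scrambled replicate 3 left out, had 13 rises and 4 falls among the longer, and 5 rises and 7 falls among the shorter.

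KRAB genes on and off chromosome 19 were also counted apart. In the double knockdown against Scrambled, 25 of the 60 genes with a match on chromosome 19 rose (41.7%), and 20 of the 41 on other chromosomes (48.8%), where 14.7% of all genes rose. Over siOTUD5 alone it was 11 of the 60 (18.3%) and 2 of the 41 (4.88%), where 3.35% of all genes rose. These counts became 4 to 7 on chromosome 19 when any siOTUD5 or double-knockdown library was left out and 14 and 7 without Scrambled replicate 3. Over siTRIP12 alone it was 9 of the 60 (15%) and 12 of the 41 (29.3%), where 8.78% of all genes rose. The 9 became 4 or 5 without siTRIP12 replicate 1 or 3 or double-knockdown replicate 1, and 15 without Scrambled replicate 3. These differences by place were not tested. Without Scrambled replicate 3, 42 genes with a match rose and 7 fell in the double knockdown (median 0.15), and 18 without it rose and 11 fell (median 0.017). The falls became 1 and 4 without double-knockdown replicate 1. With the length trend removed the counts were 43 and 4 with the match, against 19 and 11 without it. Over siOTUD5 alone, 13 genes with the match rose in the double knockdown and 1 fell (median 0.090), against 3 rises and 4 falls without it (median -0.014). The 13 rises became 5 to 8 when any siOTUD5 or double-knockdown library was left out. Without Scrambled replicate 3 they became 21, against 7 rises and 11 falls without the match.

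**Figure D3:**
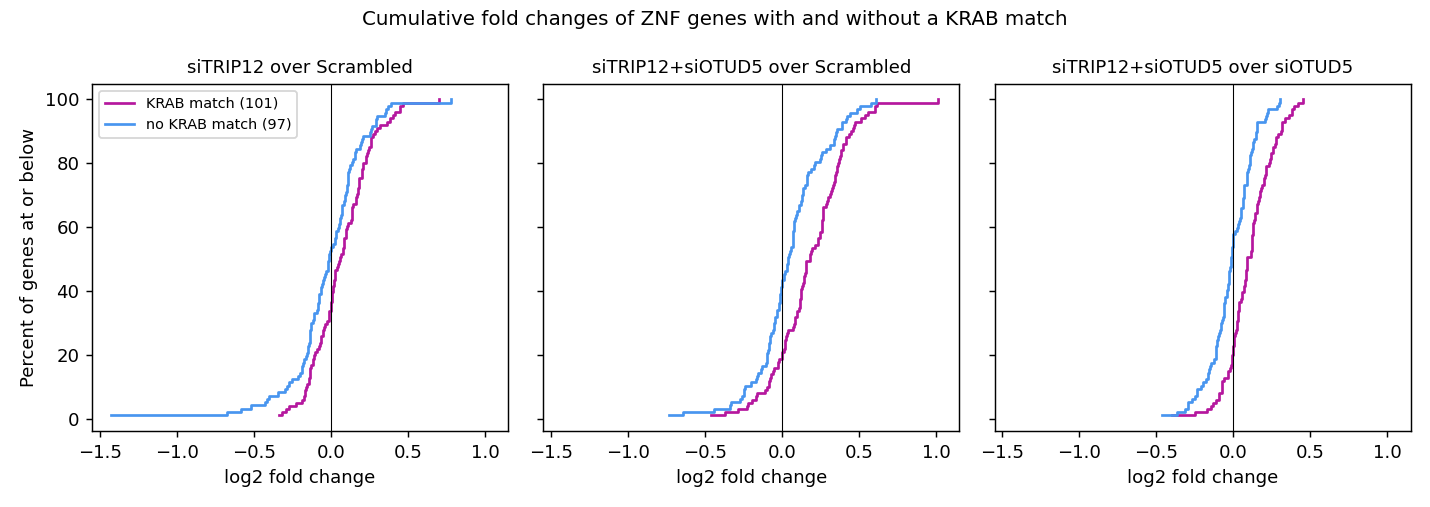
Percent of genes (vertical axis) at or below each log2 fold change (horizontal axis) for the 101 ZNF genes with a KRAB match and the 97 without it, in 3 comparisons. The curve of the genes with a match lies to the right of the other over most of the range, with medians of 0.18 against 0.039 in the double knockdown over Scrambled.

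Among single KRAB genes, ZNF841 (chr19:52058490-52095765, RefSeq GRCh38.p14, as for the genes after it) changed most. It had 28.5, 33.1 and 28.9 CPM in siTRIP12, 31.2, 27.6 and 31.2 CPM in siOTUD5 and 38.6, 38.6 and 34.9 CPM in the double knockdown, against 19.3, 18.7 and 17.7 CPM in Scrambled. All 9 knockdown libraries lay above the 3 Scrambled libraries, and the double knockdown above both single ones. ZNF841 rose by 0.70 ± 0.08 with siTRIP12 (adjusted p = 3.3e-06), by 0.69 ± 0.08 with siOTUD5 (adjusted p = 9.4e-06) and by 1.01 ± 0.08 with both (adjusted p = 6.7e-08).

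ZNF12 (chr7:6688433-6706947) rose in each of the 3 knockdown groups. It had 32.3, 36.2 and 34.9 CPM in siTRIP12, 37.4, 31.7 and 34.6 CPM in siOTUD5 and 38.4, 36.5 and 35.1 CPM in the double knockdown, against 24.1, 26.1 and 25.6 CPM in Scrambled. The knockdown groups overlapped one another and none overlapped Scrambled. The log2 fold changes were 0.45 ± 0.07 with siTRIP12 (adjusted p = 0.00018), 0.45 ± 0.07 with siOTUD5 (adjusted p = 0.00031) and 0.54 ± 0.07 with both (adjusted p = 3.8e-05).

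Other KRAB genes rose with siTRIP12 by smaller amounts. ZNF875 rose by 0.47 ± 0.06 (adjusted p = 2.5e-05), ZNF43 by 0.45 ± 0.08 (adjusted p = 0.00047), ZNF562 by 0.42 ± 0.06 (adjusted p = 2.8e-05) and ZNF83 by 0.40 ± 0.08 (adjusted p = 0.00092). ZNF562 had 75.8, 78.6 and 75.9 CPM in siTRIP12, against 61.9, 56.7 and 54.1 CPM in Scrambled, and its siOTUD5 libraries, at 58.4, 57.2 and 59.2 CPM, lay within the Scrambled range. ZNF283 rose by 0.39 ± 0.10, and ZNF445, a regulator of imprinted genes, by 0.36 ± 0.07, a call that ended with the length trend removed (adjusted p = 0.088). ZNF680 rose by 0.32, which did not pass without siTRIP12 replicate 1 or 2 or Scrambled replicate 2. ZNF92 and ZNF23 were among the largest rises of the double knockdown, at 0.60 ± 0.07 (adjusted p = 1e-05) and 0.62 ± 0.11 (adjusted p = 0.00027). ZNF92 had 27.5, 26.4 and 28.5 CPM there, above all 9 other libraries, with 22.4, 22.1 and 20.5 CPM in siTRIP12, 20.7, 23.1 and 20.3 CPM in siOTUD5 and 18.6, 17.3 and 18.4 CPM in Scrambled. ZNF84 rose by 0.54 ± 0.07 over siTRIP12 alone (adjusted p = 5.3e-05), with 35.9, 34.7 and 35.7 CPM in the double knockdown, against 23.99, 25.5 and 23.7 CPM in siTRIP12.

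A few KRAB genes fell. ZNF778 had 18.5, 21.3 and 21.99 CPM in siOTUD5 and 23.3, 19.3 and 21.5 CPM in the double knockdown, against 31.8, 30.5 and 26.01 CPM in Scrambled, and both groups lay below Scrambled. It fell by 0.51 ± 0.10 with siOTUD5 (adjusted p = 0.001) and by 0.46 ± 0.10 with both (adjusted p = 0.0016). ZNF138 fell by 0.46 ± 0.09 with siOTUD5 (adjusted p = 0.00083) and ZNF480 by 0.40 ± 0.07 (adjusted p = 0.00062). With siTRIP12 the KRAB gene ZNF227 fell by 0.29 ± 0.06 (adjusted p = 0.0019), with 26.5, 26.1 and 27.2 CPM in siTRIP12, against 31.0, 33.9 and 33.0 CPM in Scrambled. ZNF587B fell by 0.34 (adjusted p = 0.003). ZNF264 fell by 0.27 (adjusted p = 0.032), a call that ended in 6 of the 12 fits with 1 library left out: any siTRIP12 library, siOTUD5 replicate 3, or Scrambled replicate 1 or 2.

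Genes without a KRAB match held the largest falls with siTRIP12. ZNF367 (chr9:96385941-96418370) had 15.5, 13.9 and 13.1 CPM in siTRIP12, 29.2, 31.2 and 28.4 CPM in siOTUD5 and 26.3, 22.4 and 20.1 CPM in the double knockdown, against 37.4, 38.5 and 38.5 CPM in Scrambled. No 2 groups overlapped, and the double knockdown lay between the single ones. ZNF367 fell by 1.43 ± 0.09 with siTRIP12 (adjusted p = 2.7e-09), by 0.37 ± 0.09 with siOTUD5 (adjusted p = 0.0054) and by 0.73 ± 0.09 with both (adjusted p = 8.8e-06). ZNF367 was the only gene of the 199 that changed by more than 2-fold with siTRIP12.

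ZNF768 (chr16:30524004-30532477), which binds sequences derived from MIR repeats, fell in all 3 knockdown groups. It had 31.0, 32.2 and 32.1 CPM in siTRIP12, 33.0, 36.6 and 38.0 CPM in siOTUD5 and 26.2, 31.3 and 30.0 CPM in the double knockdown, against 44.8, 42.7 and 49.1 CPM in Scrambled. It fell by 0.52 ± 0.08 with siTRIP12 (adjusted p = 6.6e-05), by 0.34 ± 0.08 with siOTUD5 (adjusted p = 0.0038) and by 0.64 ± 0.08 with both (adjusted p = 1e-05). ZNF711, which recruits the histone demethylase PHF8 to promoters, had 10.6, 9.30 and 7.47 CPM in siTRIP12, against 16.2, 13.8 and 13.7 CPM in Scrambled, and fell by 0.67 ± 0.11 (adjusted p = 0.00014). ZNF827, which recruits the NuRD complex to telomeres, fell by 0.59 ± 0.11 (adjusted p = 0.00076), ZNF629 by 0.43 ± 0.10 (adjusted p = 0.0025), ZNF24 by 0.42 ± 0.07 (adjusted p = 0.00035) and ZNF770 by 0.40 ± 0.07 (adjusted p = 0.00036). For ZNF711, ZNF827, ZNF629, ZNF24 and ZNF770 the double knockdown did not pass the test against Scrambled, with log2 fold changes of -0.14, -0.13, -0.05, -0.10 and -0.17. ZNF200 fell by 0.35, a call that ended without siTRIP12 replicate 3 (adjusted p = 0.065), and ZNF691 by 0.29, which ended without any 1 siTRIP12 library or Scrambled replicate 3.

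Rises without a KRAB match were led by ZNF185 (chrX:152898067-152973481). It had 17.7, 14.7 and 15.7 CPM in siTRIP12, 13.9, 14.1 and 12.8 CPM in siOTUD5 and 13.3, 13.8 and 14.8 CPM in the double knockdown, against 8.72, 10.1 and 9.23 CPM in Scrambled. Every knockdown library lay above Scrambled, and the double knockdown overlapped both single ones. It rose by 0.78 ± 0.09 with siTRIP12 (adjusted p = 5.4e-06), by 0.54 ± 0.09 with siOTUD5 (adjusted p = 0.00046) and by 0.58 ± 0.09 with both (adjusted p = 0.00016). ZNF337 rose by 0.40 ± 0.07 with siOTUD5 (adjusted p = 0.00063) and by 0.61 ± 0.07 with both (adjusted p = 6.4e-06). ZNF516, known in mice as an activator of brown fat genes, had 24.5, 25.8 and 23.0 CPM in siOTUD5, against 17.7, 17.3 and 12.5 CPM in Scrambled, and rose by 0.63 ± 0.11 (adjusted p = 0.00039). ZNF654 rose by 0.41 ± 0.09 with siOTUD5 (adjusted p = 0.0026). ZNF276 rose by 0.40 with siOTUD5, a call that ended without siOTUD5 replicate 2 (adjusted p = 0.054). ZNF704 rose by 0.35 with siTRIP12, which ended with the length trend removed (adjusted p = 0.12). ZNF462 rose by 0.39 with siTRIP12 and by 0.38 with siOTUD5, calls that ended without siTRIP12 replicate 1 and without any 1 siOTUD5 library.

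Several smaller falls without a match ended when 1 library was left out. With siOTUD5, ZNF672 fell by 0.33, which ended without siOTUD5 replicate 1 or Scrambled replicate 1, and ZNF593, the counterpart of a yeast factor of ribosome assembly, fell by 0.32, which ended without siOTUD5 replicate 2 or 3 or Scrambled replicate 3. In the double knockdown against Scrambled, ZNF511 stood at -0.34 ± 0.07 (adjusted p = 0.0022), a call that passed with any library left out. ZNF576 was at -0.44, which ended without double-knockdown replicate 1 or Scrambled replicate 3, and ZNF668 at -0.33, which ended without Scrambled replicate 2.

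Of the most abundant genes, ZNF598 and ZNF512B rose with siOTUD5. ZNF598 had 154, 164 and 149 CPM in siOTUD5, against 125, 127 and 115 CPM in Scrambled, and rose by 0.35 ± 0.06 (adjusted p = 0.00045). ZNF512B had 155, 156 and 153 CPM in siOTUD5, against 124, 130 and 107 CPM in Scrambled, and rose by 0.36 ± 0.06 (adjusted p = 0.00037). ZNF207 fell by 0.18 ± 0.05 with siTRIP12 (adjusted p = 0.0074) and ZNF146 by 0.22 ± 0.07 with siOTUD5 (adjusted p = 0.02).

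**Figure D4:**
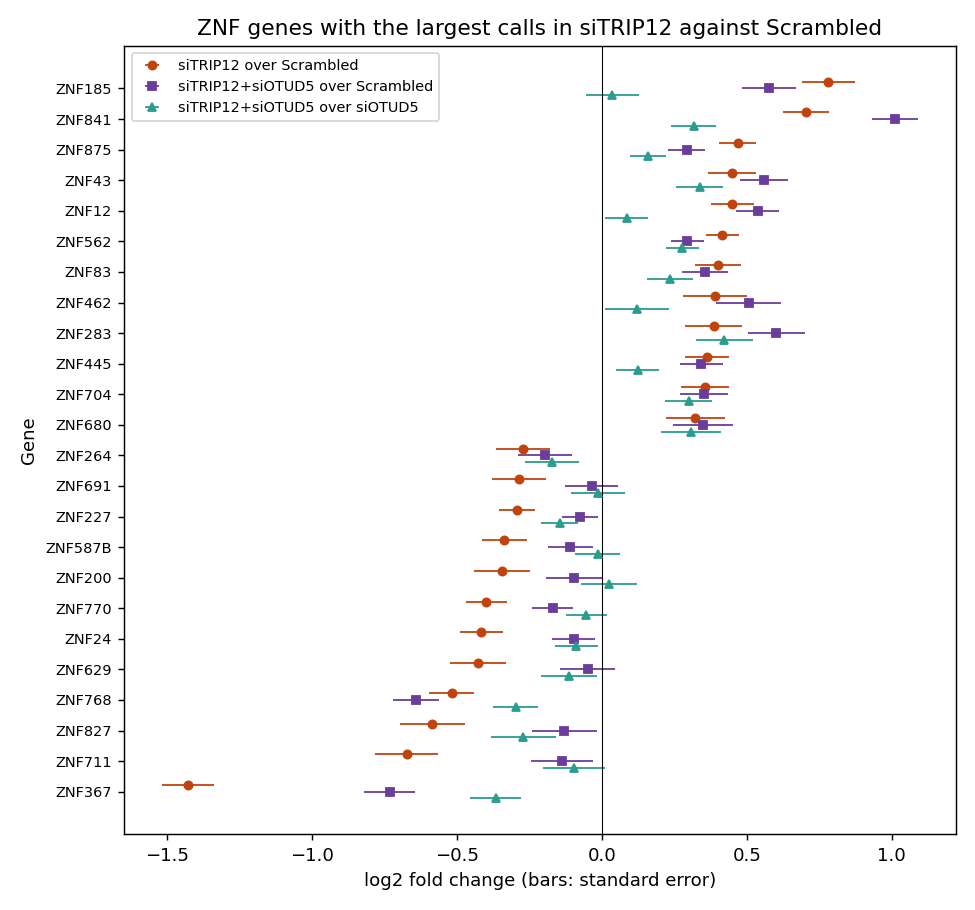
Log2 fold change with its SE (horizontal axis) of the 12 largest rises and 12 largest falls with siTRIP12 against Scrambled, in siTRIP12 over Scrambled (circles), siTRIP12+siOTUD5 over Scrambled (squares) and siTRIP12+siOTUD5 over siOTUD5 (triangles). ZNF841 ran from 0.32 (triangle) to 1.01 (square) and ZNF367 from -1.43 (circle) to -0.37 (triangle), and the squares and triangles of ZNF711, ZNF24 and ZNF629 lie near 0.

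The ZNF genes of chromosome 19 were also read in order, in runs separated by gaps of over 1 Mb. A run at chromosome 19, 19668153 to 24129968 on GRCh38, holds 38 ZNF genes, of which 9 are among the 199: ZNF101, ZNF714, ZNF431, ZNF708, ZNF100, ZNF43, ZNF91, ZNF675 and ZNF681, all with a KRAB match. It was singled out after its values were seen, so no test is attached. In the double knockdown 7 of the 9 rose against Scrambled (median log2 fold change 0.36), where 14.7% of all genes rose. With siTRIP12 it was 1 (median 0.061) and with siOTUD5 1 (median 0.017), counts that ran from 0 to 2 with a library left out. Of all genes 14.5% rose with siTRIP12 and 11.4% with siOTUD5. Over siOTUD5 alone 7 of the 9 also rose in the double knockdown (median 0.32), where 3.35% of all genes rose. The count against Scrambled was 6 or 7 with any 1 library left out and 5 with the length trend removed. Over siOTUD5 it became 2 without siOTUD5 replicate 1, 3 without siOTUD5 replicate 2 or double-knockdown replicate 1 or 3, and 4 without siOTUD5 replicate 3.

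Single genes of the run differed. The test of whether both changes add up (given below) passed for 0 of the 9, where 8.16% of all genes passed it. ZNF43 rose with siTRIP12 alone by 0.45 ± 0.08 (adjusted p = 0.00047). In the double knockdown it rose by 0.56 ± 0.08 over Scrambled (adjusted p = 7.3e-05). ZNF681 had 15.99, 14.1 and 16.5 CPM in the double knockdown, against 11.5, 11.996 and 10.6 CPM in siTRIP12, 12.2, 11.7 and 11.6 CPM in siOTUD5 and 10.9, 11.4 and 10.4 CPM in Scrambled. Only the double knockdown stood clear of the other groups, by 0.51 ± 0.09 over Scrambled (adjusted p = 0.00025) and 0.40 ± 0.09 over siOTUD5 (adjusted p = 0.0078). ZNF675, known as an inhibitor of TRAF6 signalling, had 21.1, 18.97 and 19.8 CPM in the double knockdown, 14.1, 14.9 and 14.8 CPM in siOTUD5 and 15.7, 14.2 and 15.9 CPM in Scrambled, and rose by 0.45 ± 0.08 over siOTUD5 (adjusted p = 0.0027). ZNF91, the repressor of SVA elements, had 23.8, 21.4 and 22.5 CPM in the double knockdown, against 16.4, 17.5 and 16.6 CPM in siTRIP12, and rose by 0.43 ± 0.07 (adjusted p = 0.00059). A run at 55476617 to 58489533 holds more of the 199, 25 genes. There 3 rose and 1 fell in the double knockdown against Scrambled (median 0.017), where 14.7% of all genes rose and 16.2% fell. How the authors assigned reads that match several paralogs is not given in the sources used here, so values of near-identical neighbours are uncertain.

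**Figure D5:**
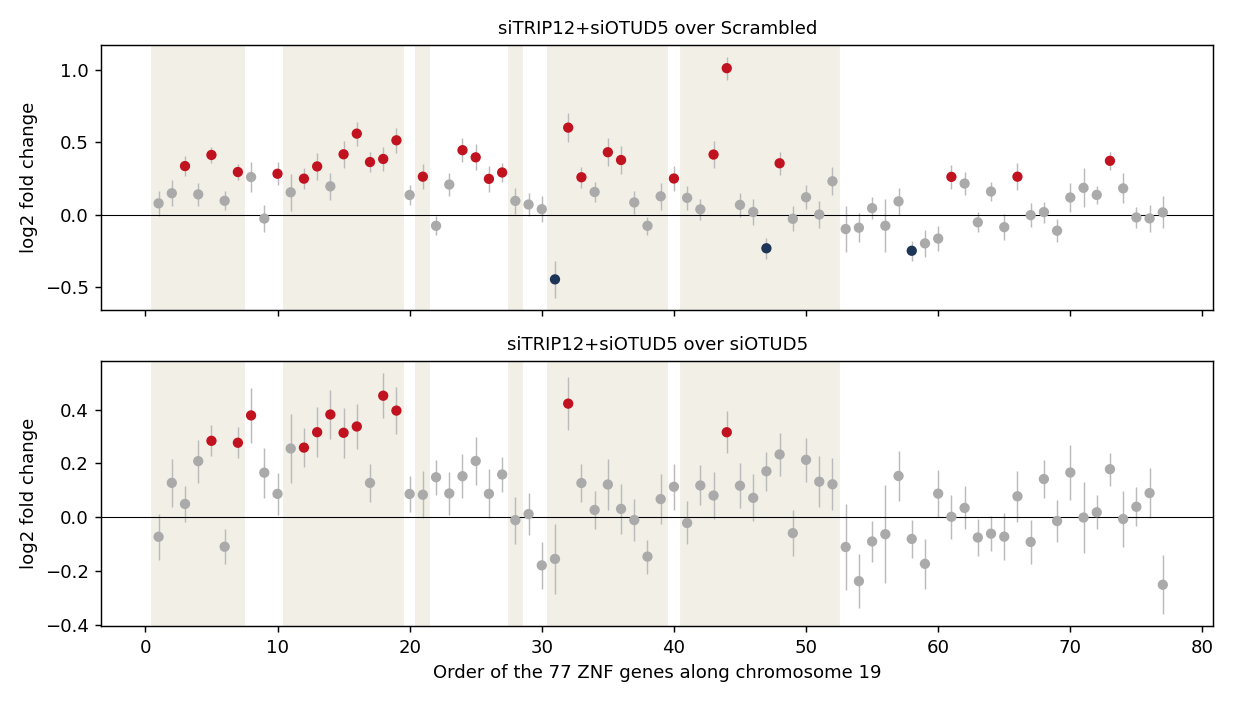
Log2 fold change with its SE of the 77 ZNF genes on chromosome 19, in their order along it (horizontal axis), for the double knockdown over Scrambled (top) and over siOTUD5 (bottom). Red points rose and dark blue points fell at adjusted p under 0.05, and alternate shading and white mark the runs, drawn for those with any of the 77 genes. In the run of 9 genes at positions 11 to 19, 7 points are red in each panel. Of all genes tested, 14.7% rose in the top comparison and 3.35% in the bottom one.

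Few ZNF genes passed the test of whether both changes add up. The interaction is the double knockdown over siOTUD5 minus siTRIP12 over Scrambled on the log2 scale. It passed for 5 of the 199 above 0 and 4 below 0, 2.51% and 2.01%. Of all genes 4.61% passed above and 3.55% below, and of the 8867 protein-coding genes 7.44% and 4.53%. The 199 genes had a median of 0.012. ZNF367 stood at 1.06 ± 0.13 (adjusted p = 4.5e-05): it fell by 0.37 over siOTUD5, against 1.43 over Scrambled. ZNF185 stood at -0.75 ± 0.13 (adjusted p = 0.0016), at 0.04 over siOTUD5, against 0.78 over Scrambled. These 2 calls passed with any 1 library left out, and each of the other 7 ended in 7 or more of the 12 such fits. The number above 0 ran from 1 to 14 over those fits, and was 14 without Scrambled replicate 3.

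Partners of KRAB proteins in silencing were counted from a list of 30 genes. With siTRIP12, 2 rose and 6 fell (median -0.039), 26.7% of the list, where 31.9% of all genes were called. With siOTUD5, 4 rose and 4 fell (median -0.043), 26.7% of the list and 23.2% of all genes. In the double knockdown 4 rose and 5 fell against Scrambled (median 0.020), 30% of the list and 30.9% of all genes, so the called shares were near those of all genes. With Scrambled replicate 3 left out the counts were 2 and 8, 4 and 6, and 5 and 6. The 2 rises became 1 without siTRIP12 replicate 1 or 2, the 4 siOTUD5 falls became 2 without siOTUD5 replicate 1 or 3, and the 5 double-knockdown falls became 3 without double-knockdown replicate 2 or 3. TRIM28, the corepressor that KRAB domains bind, had 700, 644 and 731 CPM in siTRIP12, 725, 736 and 717 CPM in siOTUD5 and 687, 733 and 674 CPM in the double knockdown, against 691, 718 and 732 CPM in Scrambled. All 4 groups overlapped, and the siTRIP12 change was -0.05 ± 0.05 (adjusted p = 0.58). SETDB1 had 30.2, 33.0 and 32.9 CPM in siOTUD5, against 24.2, 27.7 and 25.4 CPM in Scrambled, and rose by 0.31 ± 0.07 (adjusted p = 0.0029). UHRF1, which brings DNMT1 to hemimethylated DNA, had 116, 113 and 111 CPM in siTRIP12, against 185, 197 and 162 CPM in Scrambled. It fell by 0.67 ± 0.06 with siTRIP12 (adjusted p = 3.8e-07). It also fell by 0.36 with siOTUD5 (adjusted p = 0.00053) and by 0.51 with both (adjusted p = 1.3e-05). Its interaction stood at 0.52 ± 0.09 (adjusted p = 0.0014). MPHOSPH8, a subunit of the HUSH silencing complex, fell by 0.36 ± 0.07 with siTRIP12 (adjusted p = 0.00076). EHMT1, a histone H3K9 methyltransferase, rose by 0.25 ± 0.06 with siTRIP12 (adjusted p = 0.0029). EHMT1 also rose by 0.27 with siOTUD5 (adjusted p = 0.0025) and by 0.31 with both (adjusted p = 0.00057).

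Other C2H2 families (ZSCAN, ZKSCAN, ZFP, ZBTB, KLF and PRDM symbols, 58 genes at the same level) gave 11 rises and 13 falls with siTRIP12 (median 0.010), 16 rises and 5 falls with siOTUD5 (median 0.16) and 17 rises and 5 falls in the double knockdown (median 0.12). The same counts without Scrambled replicate 3 were 11 and 16 (median -0.019), 12 and 6 (median 0.082), and 13 and 7 (median 0.040). The 13 siTRIP12 falls became 7 without Scrambled replicate 1, the siOTUD5 rises became 10 without siOTUD5 replicate 1, and the double-knockdown rises became 10 without double-knockdown replicate 1. The 5 siOTUD5 falls became 2 or 3 without any 1 siOTUD5 library or Scrambled replicate 1. With all libraries, the rises were 18.97%, 27.6% and 29.3% of the 58 genes, in the same order. The falls were 22.4%, 8.62% and 8.62%. Of all genes 14.5%, 11.4% and 14.7% rose and 17.4%, 11.9% and 16.2% fell. Of the 199 genes 14.6%, 19.1% and 32.7% rose and 9.05%, 5.53% and 6.03% fell. The 58 genes thus had the larger share of rises with either single siRNA and the smaller in the double knockdown. These differences were not tested. The symbol pattern also takes in ZFP36L1, whose fingers are of the CCCH type. KLF2, an activator of vascular and lymphocyte quiescence genes, had 68.3, 62.9 and 52.7 CPM in siOTUD5, against 25.8, 22.6 and 26.9 CPM in Scrambled. KLF2 rose by 1.29 ± 0.13 with siOTUD5 (adjusted p = 1e-05) and by 0.91 ± 0.13 with both (adjusted p = 0.00012). ZBTB38, a methyl-CpG binding repressor, had 143, 143 and 136 CPM in siTRIP12, against 248, 245 and 203 CPM in Scrambled. ZBTB38 fell by 0.72 ± 0.06 with siTRIP12 (adjusted p = 1.6e-07) and by 0.61 ± 0.06 with both (adjusted p = 1.7e-06). Less abundant ZNF genes were counted as well. Among the 232 tested with a mean under 500 reads, 29 rose and 8 fell with siTRIP12, 24 rose and 7 fell with siOTUD5, and 46 rose and 9 fell in the double knockdown. The rises were 12.5%, 10.3% and 19.8% of the 232 and the falls 3.45%, 3.02% and 3.88%. The shares that rose with each single siRNA were thus near or below those of all genes. In the double knockdown the share that rose was above that of all genes. The shares that fell were below those of all genes in each comparison. The median log2 fold changes of the 232 were 0.060, 0.078 and 0.13. They were 0.028, 0.084 and 0.11 in the 199 and 0.0069, -0.0078 and 0.0024 over all genes. Without Scrambled replicate 3 the counts of the 232 were 20 and 10, 16 and 10, and 35 and 7. The siOTUD5 rises became 14 without siOTUD5 replicate 3, and the falls became 3 or 4 without any 1 siOTUD5 library or Scrambled replicate 1. The siTRIP12 falls became 3 without siTRIP12 replicate 1 and 5 without its replicate 3.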

How the data were processed

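The authors deposited 1 table with, per gene and library, whole-number read counts, FPKM (fragments scaled to transcript length and library size) and TPM, per the file headers. HISAT2, StringTie and build GRCh38 are named in the submitters' processing notes, without versions or roles. Per the labels' protocols, RNA was isolated on columns and made into stranded poly(A) libraries. Whether reads or fragments were counted, and how strand and multiply matching reads were handled, is not given in the sources used here. The labels' cell line name counts upward from sample to sample, and the series design names HT1080, taken here for all 12. TPM were not used. The deposited FPKM gave levels per length and, with the counts, an effective transcript length per gene.

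Counts were tested with edgeR 4.0.16 (R 4.3.3): filterByExpr on the 4 groups left 16283 genes and removed 30144, TMM factors, robust quasi-likelihood fit of all 12 libraries with a mean per group (common biological variation 0.0822 as a coefficient, and 8 degrees of freedom left), F-tests, and Benjamini-Hochberg adjustment over all genes. "Rose" and "fell" mean adjusted p under 0.05. All 199 genes passed the filter. The test was checked on simulated counts. CPM are counts scaled to library sizes that TMM factors adjust. SE are of the log2 fold change. Exact permutation tests used scipy 1.17.1.

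The members, gene lists and naming rule were chosen with earlier results of these data known. The rule names the 12 (siTRIP12) or 8 (other comparisons with Scrambled) largest rises and falls among called genes without overlap between libraries, and 5 in the other comparisons. Not every change that the rule names is described above. Those left out include falls of ZNF749, ZNF589, ZNF205, ZNF444, ZNF503 and ZNF696 and a rise of ZNF700. Also named are the 5 genes with the most reads, genes beside the threshold, and up to 4 genes of each companion list. Genes of the chromosome 19 run, TRIM28, and ZNF92, ZNF84, ZNF598, ZNF512B, ZNF146 and SETDB1 where given outside those ranks were named after their values were seen. Alternatives were other scalings (DESeq2 1.42.0 size factors, upper-quartile), filters, a replicate block, removal of a length trend, only the groups compared, each library left out, glmTreat at 1.5-fold, limma-voom (limma 3.58.1), the DESeq2 test, and other minimum levels. KRAB and finger patterns were searched in the longest translated reading frame of GENCODE transcripts. The KRAB split and the chromosome 19 run without Scrambled replicate 3, with the length trend removed and with upper-quartile factors were alternatives added after seeing the data, as were left-out libraries for the companion lists. Same-numbered libraries did not deviate together, so replicate numbers were not used as pairs. No per-sample column was left unmapped.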

Additional observations from a re-analysis of the deposited data

Results flagged for a closer look

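The effect of siTRIP12 differed between cells with and without siOTUD5 for 9 of the 199 ZNF genes, by the interaction term of the edgeR fit (adjusted p under 0.05 over 16283 genes). Of all genes tested 8.16% passed, and of the 8867 protein-coding genes 11.98%. The 199 genes thus passed less often than both. On the log2 scale, the effect in the siOTUD5 background minus that in the scrambled background was 1.06 for ZNF367, 0.58 for ZNF711, 0.40 for ZNF480, 0.35 for ZNF770 and 0.23 for ZNF207. It was -0.75 for ZNF185, -0.39 for ZNF841, -0.36 for ZNF12 and -0.31 for ZNF875. ZNF367 and ZNF185 passed with any 1 library left out. For the other 7 the call ended in 7 to 11 of the 12 such fits. ZNF207 had the most such losses, 11, and ZNF480 the fewest, 7.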

How the results depend on the processing

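All numbers here are counts of the 199 ZNF genes that rose or fell, unless a median is named. With siTRIP12 against Scrambled (47 genes), the count was 31 with only the groups compared, 74 at a minimum mean of 200 reads, 30 at 1000 and 84 over every ZNF gene tested. With siOTUD5 (49), it was 80 over every ZNF gene tested. The double knockdown against Scrambled (77) gave 45 at 1000 reads and 132 over every ZNF gene tested, and against siTRIP12 (42) it gave 26 at 1000 reads. Against siOTUD5 (21) it gave 32 with the length trend removed, 45 with only the groups compared, 7 at 1000 reads and 35 over every ZNF gene tested. The interaction (9) gave 14 at 200 reads and 16 over every ZNF gene tested. The other minimum levels change how many genes are counted. Of the rest the cause was not tested. A test against a 1.5-fold change (glmTreat) left 1 gene with siTRIP12, 1 in the double knockdown against Scrambled and 0 in the other 4 comparisons. Upper-quartile factors gave a median log2 fold change of 0.074 with siTRIP12. With each library left out in turn, the counts ran from 33 to 55 for siTRIP12, 29 to 49 for siOTUD5, 57 to 78, 22 to 64 and 8 to 40 for the double knockdown against Scrambled, siTRIP12 and siOTUD5, and 2 to 18 for the interaction. The median log2 fold changes ran from 0.0073 to 0.048 with siTRIP12, 0.042 to 0.10 with siOTUD5, 0.076 to 0.13, 0.090 to 0.10 and 0.034 to 0.056 in the same comparisons of the double knockdown, and 0.0022 to 0.040 for the interaction. Without Scrambled replicate 3 the medians of all 3 comparisons with Scrambled were at their lowest. Same-numbered libraries did not deviate together: 3 of 18 pairs correlated above 0.1 (r from -0.16 to 0.19), and 4 of 12 libraries correlated best with their own number. With the replicate block the counts were 48 for siTRIP12, 46 for siOTUD5, 76, 41 and 19 for the double knockdown against Scrambled, siTRIP12 and siOTUD5, and 7 for the interaction. Over 3435 values of named genes under alternatives, 3073 kept direction and side of the threshold, 343 lost the call, 19 gained one and 0 reversed.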
